A study of Mus musculus with 8 samples.

Results

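The carnitine shuttle and the enzymes that set malonyl-CoA were represented by 9 genes, taken by name from the 32390 rows of the count table: *Cpt1a*, *Cpt1b*, *Cpt2*, *Slc25a20*, *Slc22a5*, *Crat*, *Acaca*, *Acacb* and *Mlycd*. All 9 had enough counts to be tested, among 12725 rows tested in all. Long-chain fatty acids cannot cross the inner mitochondrial membrane as acyl-CoA. Carnitine palmitoyltransferase 1 on the outer membrane moves the acyl group to carnitine, the carrier encoded by *Slc25a20* takes the acylcarnitine inward in exchange for free carnitine, and carnitine palmitoyltransferase 2 restores the acyl-CoA for beta-oxidation. Malonyl-CoA, made by the acetyl-CoA carboxylases and broken down by malonyl-CoA decarboxylase, inhibits carnitine palmitoyltransferase 1, and in muscle this is a main brake on fat oxidation.

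Bulk poly(A) RNA-seq was done on the gastrocnemius of 4 control mice (Nox4 fl/fl) and 4 NOX4-deficient mice (MckCre:Nox4 fl/fl, KO). All 8 mice carried the floxed *Nox4* alleles and were aged 21 months, male and fed standard chow, and the labels place them in batch 1. Cre was driven by the promoter of muscle creatine kinase, which is active mainly in skeletal muscle and less in heart, so that other cells of the muscle kept *Nox4*. In whole muscle, fewer cells of a type and less RNA per cell cannot be told apart.

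The libraries held between 16350548 and 19804661 counts. *Nox4* itself had 35 to 85 counts in control and 29 to 43 in NOX4-deficient libraries, with a log2 fold change of -0.65 (SE 0.29, edgeR adjusted p = 0.207) and overlapping groups. Without control replicate 1, the highest library, the log2 fold change was -0.36. These counts cover the whole gene and all cells of the muscle, so that they do not show the deleted part on its own. Fast-fiber markers summed to between 129138 and 156849 CPM (counts scaled to the size of each library) in control and between 138078 and 164512 CPM in NOX4-deficient muscle, so that the labelled tissue's markers were abundant in both groups. Control replicate 4 stood apart in *Arntl*, a core clock gene, and *Lpin1*, a phosphatidate phosphatase raised by fasting.

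Transcripts for 1 enzyme that makes malonyl-CoA and for the enzyme that breaks it down were lower in NOX4-deficient muscle. The palmitoyltransferases, the carnitine transporter and carnitine acetyltransferase were not called. Among these, *Cpt1b*, the muscle form of carnitine palmitoyltransferase 1, had at most 21 counts, which cannot be read as its level or show it unchanged. *Mlycd* fell by 43.9% and *Acacb* by 32.4% in mean CPM. Thus, 2 of the 9 genes were called lower, at an adjusted p under 0.05 by edgeR's quasi-likelihood test and an absolute log2 fold change over 0.5, against 3.48% of all rows tested. None was called higher, against 2.68% of all rows, and none of the 3 genes with an unadjusted p under 0.05 was higher. DESeq2 and pydeseq2 likewise called 2 lower and 0 higher. In 3 genes, *Mlycd*, *Acacb* and *Slc25a20*, every NOX4-deficient library lay below every control; groups were separated, in either direction, in 16.2% of all rows tested. The log2 fold change was negative in 6 genes and positive in 3, with a median of -0.13, and the median over all rows tested was 0.01. The median of -0.13 is the value of *Cpt1b*, which is also among the 6 negative genes and whose counts cannot be read as its level. Over all rows tested, 56.5% of the calls were lower, and with upper-quartile scaling 41.4%. Errors are SDs over the 4 mice of a genotype. The edgeR p-values test the genotype difference against the variation between mice, which was estimated for each gene with the help of all rows tested.

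**Figure D1:**
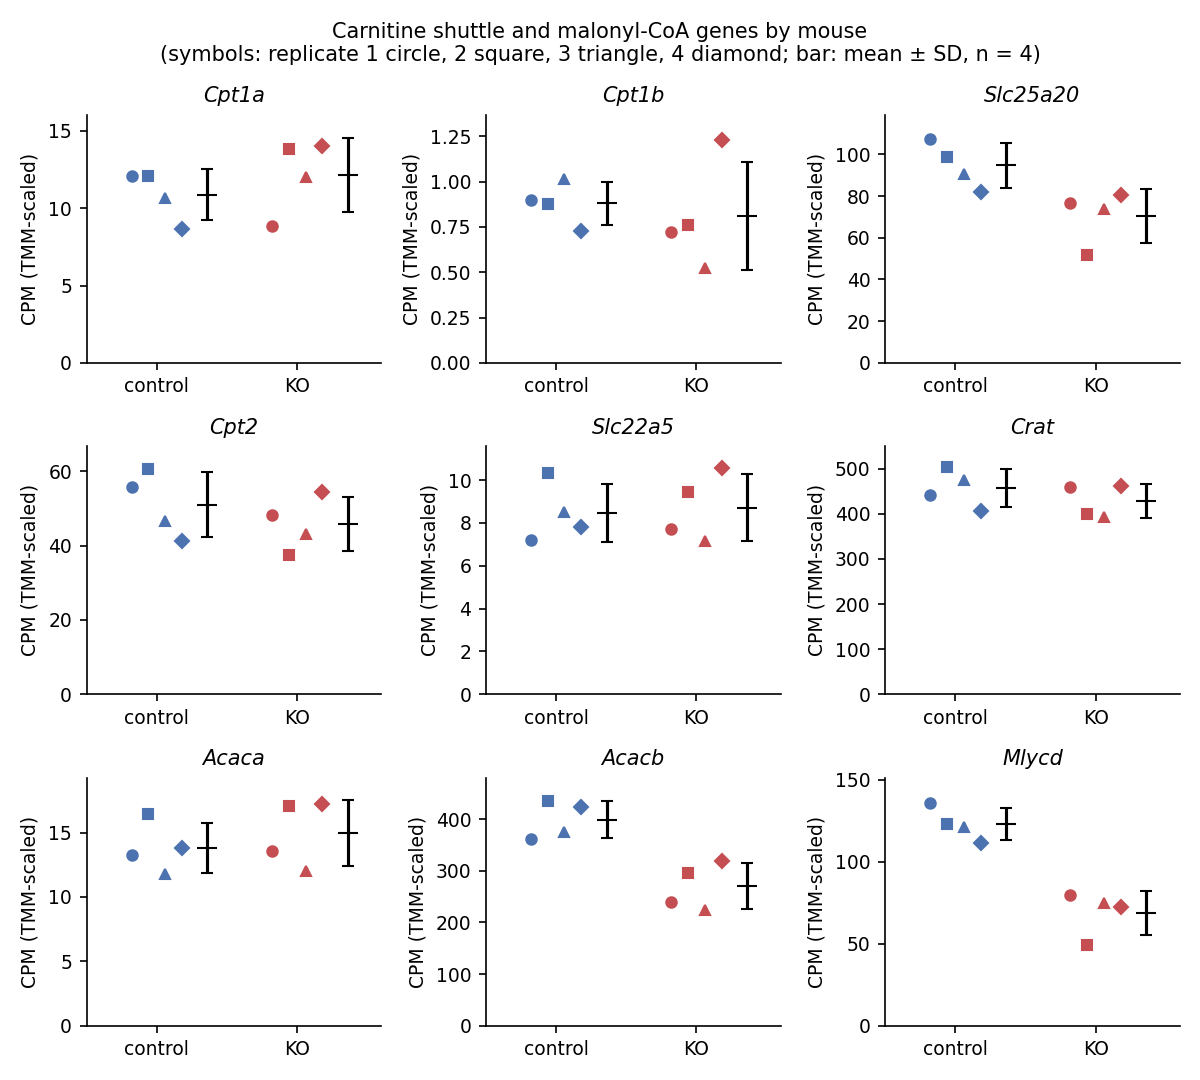
Normalized expression of the 9 genes in each mouse, in CPM scaled by TMM on axes that start at 0, with control in blue and NOX4-deficient (KO) in red. Each symbol is 1 replicate number and bars give the mean ± SD of 4 mice. In *Mlycd*, *Acacb* and *Slc25a20* every KO library lies below every control library, and in the other 6 genes the groups overlap.

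The 3 genes with separated groups are shown by their promoter windows, 250 bases before to 50 after a RefSeq transcription start (build GRCm38.p6, 5′ to 3′ on the strand of the gene). Of the 9 genes, 7 had an entry in this table, and *Cpt1b* and *Crat* had none. Capitals mark the only match in these 3 windows to the 5 motifs searched on both strands.

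Mlycd (chr8:119394644-119394943, plus strand): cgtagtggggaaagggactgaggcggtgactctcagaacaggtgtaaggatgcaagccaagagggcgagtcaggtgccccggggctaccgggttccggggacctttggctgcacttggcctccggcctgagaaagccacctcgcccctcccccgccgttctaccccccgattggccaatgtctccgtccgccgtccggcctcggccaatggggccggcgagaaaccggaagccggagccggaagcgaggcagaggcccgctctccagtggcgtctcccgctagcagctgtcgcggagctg
Acacb (chr5:114165268-114165567, plus strand): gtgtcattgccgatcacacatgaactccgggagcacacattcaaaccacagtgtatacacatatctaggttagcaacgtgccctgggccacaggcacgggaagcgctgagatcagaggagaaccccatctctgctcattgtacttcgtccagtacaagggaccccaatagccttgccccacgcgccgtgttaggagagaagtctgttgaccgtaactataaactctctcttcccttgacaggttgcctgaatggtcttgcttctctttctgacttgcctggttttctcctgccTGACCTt
Slc25a20 (chr9:108661886-108662185, plus strand): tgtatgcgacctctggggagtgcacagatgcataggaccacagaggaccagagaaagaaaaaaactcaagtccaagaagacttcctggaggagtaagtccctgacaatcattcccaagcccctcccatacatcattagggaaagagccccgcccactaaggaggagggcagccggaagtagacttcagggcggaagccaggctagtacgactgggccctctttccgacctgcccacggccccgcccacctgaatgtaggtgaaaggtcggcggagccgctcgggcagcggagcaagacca

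The motifs were AGGTCA, the half-site of nuclear receptors such as the PPARs, AGGTCANAGGTCA, its direct repeat with a spacer of 1 base, TCAAGGTCA, the element of estrogen-related receptors, TGACNNNGC, the core of the antioxidant response element bound by NFE2L2, and CACGTG, the E-box bound by clock proteins. The half-site lies within the second and the third of these where they match. *Acacb* held the half-site on the minus strand, starting at base 44 after the transcription start, and *Cpt1a* held it at base -94. Among all 32851 windows of this length, the half-site was present in 16.3%, its direct repeat in 0.04%, the estrogen-related receptor element in 0.423%, the antioxidant core in 12.4% and the E-box in 7.15%. None of the 7 windows matched the last 4 of these letter strings, and a match or its absence in so short a window is only a description. The windows also differed in base composition, with 68.0% G and C for *Mlycd*, 51.7% for *Acacb* and 58.0% for *Slc25a20*, where the median over all windows was 52.7%.

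*Mlycd* encodes malonyl-CoA decarboxylase, which converts malonyl-CoA back to acetyl-CoA. The 4 control libraries had 136, 123, 121 and 112 CPM, and the 4 NOX4-deficient libraries had 79.5, 49.1, 74.7 and 72.4 CPM. Every NOX4-deficient library was thus well below the lowest control, and replicate 2 was the lowest of all. The mean was 123 ± 9.90 CPM for control mice and 68.9 ± 13.5 CPM for NOX4-deficient mice (SD, n = 4 each). The log2 fold change was -0.83 (SE 0.14, 95% interval -1.14 to -0.53, edgeR adjusted p = 0.00476). Without any single library it stayed between -0.90 and -0.70 and was called each time.

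*Acacb* encodes acetyl-CoA carboxylase 2, the form on the outer mitochondrial membrane that supplies the malonyl-CoA next to carnitine palmitoyltransferase 1. Its normalized expression was 362, 435, 375 and 424 CPM in control replicates 1 to 4 and 240, 295, 225 and 319 CPM in NOX4-deficient replicates 1 to 4. As a ratio, the lowest control (362 CPM) and the highest NOX4-deficient library (319 CPM) lay closer together than for *Mlycd* (112 and 79.5 CPM). Control mice averaged 399 ± 35.5 CPM and NOX4-deficient mice 269.9 ± 44.6 CPM (SD, n = 4 each). The log2 fold change was -0.56 (SE 0.13, 95% interval -0.84 to -0.29, edgeR adjusted p = 0.0194). This call was close to the threshold. The edgeR adjusted p rose to 0.0579 without control replicate 2, 0.0512 without control replicate 4, 0.0532 without NOX4-deficient replicate 1 and 0.056 without NOX4-deficient replicate 3, and with upper-quartile scaling the log2 fold change was -0.49.

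*Acaca* encodes acetyl-CoA carboxylase 1, the cytosolic form known for fatty acid synthesis. It had 221, 319, 220 and 266 counts in control and 226, 338, 229 and 293 counts in NOX4-deficient libraries, and both groups spanned nearly the same range. Its log2 fold change was 0.12 (SE 0.15, 95% interval -0.21 to 0.44, edgeR adjusted p = 0.695), so that a change as large as that of *Acacb* in the same direction lay outside the interval.

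Within each library, *Acacb* had 27.4, 26.5, 31.9 and 30.6 counts for each count of *Acaca* in control mice and 17.7, 17.3, 18.7 and 18.6 in NOX4-deficient mice. This ratio does not depend on the scaling of the libraries, its groups did not overlap, and its spread among NOX4-deficient mice was small (29.1 ± 2.58 against 18.05 ± 0.702, SD, n = 4 each). By contrast, the ratio of *Acacb* to *Mlycd* overlapped between genotypes, at 2.67 to 3.79 in control and 3.01 to 6.01 in NOX4-deficient libraries. NOX4-deficient replicate 2, with the least *Mlycd*, had the highest value. These ratios are descriptions without a test.

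**Figure D2:**
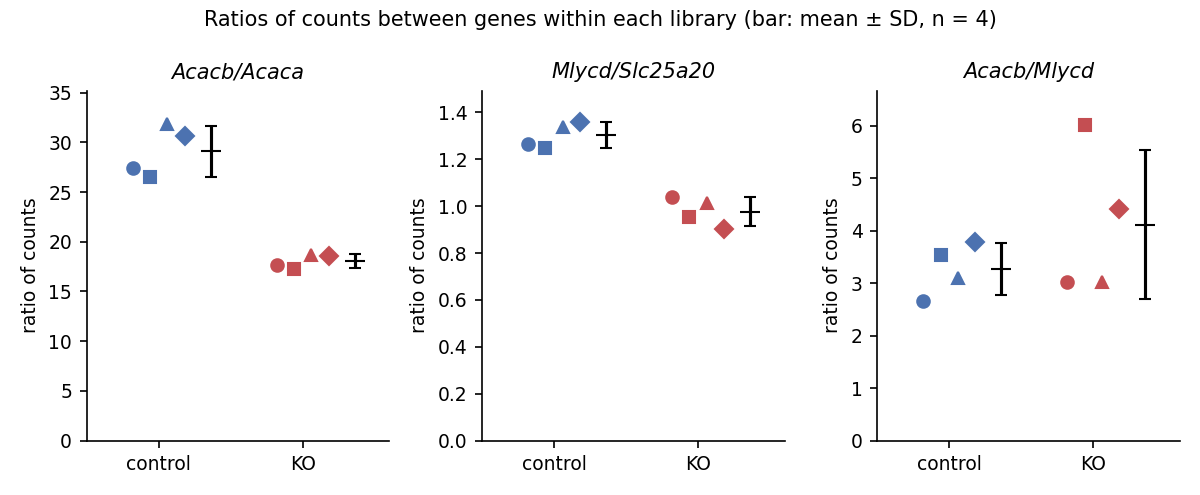
Ratios of the counts of 2 genes within each library, with control in blue, NOX4-deficient (KO) in red and bars for the mean ± SD of 4 mice. The axes start at 0 and symbols mark replicate numbers. *Acacb* over *Acaca* (left) and *Mlycd* over *Slc25a20* (middle) separate the genotypes, and *Acacb* over *Mlycd* (right) does not.

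In the shuttle itself, *Slc25a20* encodes the carnitine-acylcarnitine translocase of the inner membrane. It had 107, 98.5, 90.6 and 82.1 CPM in control and 76.5, 51.5, 73.7 and 80.4 CPM in NOX4-deficient libraries. The groups did not overlap, but NOX4-deficient replicate 4 lay just under control replicate 4. Control mice averaged 94.6 ± 10.8 CPM and NOX4-deficient mice 70.5 ± 13.0 CPM (SD, n = 4 each), and the log2 fold change was -0.42 (SE 0.14, 95% interval -0.73 to -0.12). The edgeR adjusted p was 0.0882, and it lay between 0.0549 and 0.195 over all alternatives. Without NOX4-deficient replicate 2 the log2 fold change was -0.30. Relative to *Slc25a20*, *Mlycd* had 1.30 ± 0.0549 counts per count in control and 0.976 ± 0.0618 in NOX4-deficient libraries (SD, n = 4 each), with no overlap.

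*Cpt2*, which encodes carnitine palmitoyltransferase 2, had 55.9, 60.7, 46.6 and 41.2 CPM in control and 48.2, 37.5, 43.0 and 54.5 CPM in NOX4-deficient libraries. The groups overlapped, and the lowest library was again NOX4-deficient replicate 2. Its log2 fold change was -0.16 (SE 0.15, 95% interval -0.47 to 0.16, edgeR adjusted p = 0.565). *Cpt1a* encodes the form of carnitine palmitoyltransferase 1 found in liver and most other tissues. It had 12.1, 12.1, 10.6 and 8.68 CPM in control and 8.84, 13.8, 12.0 and 14.0 CPM in NOX4-deficient libraries, a log2 fold change of 0.16 (SE 0.17, 95% interval -0.20 to 0.53, edgeR adjusted p = 0.612). NOX4-deficient replicate 1 lay apart from the other 3. The value was 0.30 without it, 0.067 without control replicate 4, 0.095 without NOX4-deficient replicate 2 and 0.10 without NOX4-deficient replicate 4.

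*Cpt1b*, the muscle form of carnitine palmitoyltransferase 1 and normally the dominant one in muscle fibers, had only 15, 17, 19 and 14 counts in control and 12, 15, 10 and 21 counts in NOX4-deficient libraries. These counts cannot be read as its level. In the GENCODE M21 annotation (build GRCm38), 81.4% of the 3372 exon bases of *Cpt1b* are also exon bases of *Gm44502*, a readthrough gene on the same strand that runs from the neighbouring *Chkb* through *Cpt1b*. Only 0.148% of the 12146 tested genes with a single model in that annotation share as large a part of their exons. *Gm44502* had 0 counts in every library and *Chkb* had 6 to 13, so that the reads of this locus were hardly present in any of the 3 rows. How the counting treated reads that fall in 2 genes is not given in the sources used here, and its part in the low counts was not tested. The log2 fold change of the counts that remained was -0.13 (SE 0.34, 95% interval -0.86 to 0.61, edgeR adjusted p = 0.869), an interval too wide to show a change of the size seen in *Acacb*.

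*Slc22a5* encodes OCTN2, the carnitine transporter of the plasma membrane. It had 120, 201, 159 and 150 counts in control and 128, 187, 136 and 180 counts in NOX4-deficient libraries, which spanned the same range. Its log2 fold change was 0.04 (SE 0.17, 95% interval -0.33 to 0.41, edgeR adjusted p = 0.919), and its sign turned when single libraries were left out. *Crat* encodes carnitine acetyltransferase, which buffers acetyl-CoA in mitochondria by forming acetylcarnitine, and was the most abundant of the 9 genes. It had 443, 504, 476 and 407 CPM in control mice and 460, 399, 394 and 461 CPM in the NOX4-deficient libraries. The groups overlapped, and 8.72% of its exon bases overlap 2 genes on the opposite strand, which these unstranded libraries cannot tell apart. The log2 fold change was -0.09 with the narrowest interval of the 9 genes, -0.32 to 0.14 (SE 0.11, edgeR adjusted p = 0.649).

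**Figure D3:**
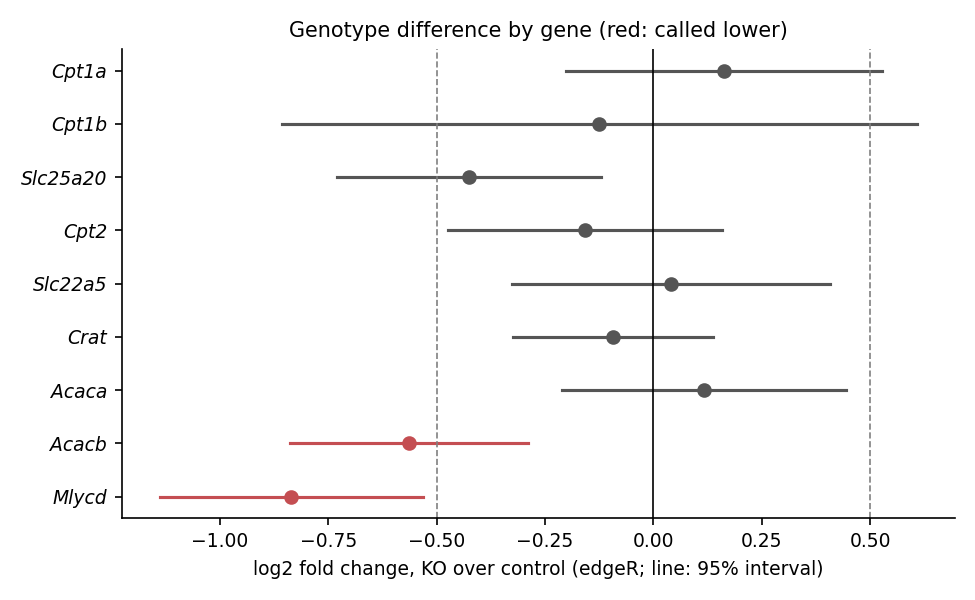
Log2 fold changes of the 9 genes, NOX4-deficient (KO) over control, with 95% intervals from the edgeR fit; dashed lines mark the threshold of 0.5 in either direction. *Mlycd* and *Acacb* (red) were called lower, the interval of *Slc25a20* lies below 0 without a call, and the intervals of the other 6 genes span 0.

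Levels were compared between genes per length, as CPM for each kilobase of annotated exon. In control muscle *Crat* had 84.9 ± 7.78, *Acacb* 41.4 ± 3.69, *Mlycd* 41.4 ± 3.34, *Cpt2* 21.4 ± 3.69 and *Slc25a20* 19.5 ± 2.23 CPM per kilobase (SD, n = 4 each). *Slc22a5* followed at 2.75 ± 0.445, *Cpt1a* at 1.42 ± 0.212 and *Acaca* at 0.809 ± 0.113 CPM per kilobase, and *Cpt1b* was listed at 0.261, which cannot be read as its level. Within a library, each gene in this order was above the next in all 8 libraries, except that *Acacb* was above *Mlycd* in 4 of 8, so that these neighbours were not ordered. The libraries of *Cpt2* and *Slc25a20* overlapped, but *Cpt2* was the higher in each. In NOX4-deficient muscle *Acacb* stood at 28.0 ± 4.63, *Mlycd* at 23.2 ± 4.56, *Cpt2* at 19.2 ± 3.03 and *Slc25a20* at 14.6 ± 2.68 CPM per kilobase (SD, n = 4 each). The order was the same, and the range of *Mlycd* over these mice, 16.5 to 26.8, now met that of *Cpt2*, 15.7 to 22.8, although *Mlycd* was the higher in each of the 4 libraries.

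Genes upstream and downstream of the shuttle were described from lists. Of 9 genes of fatty acid uptake and acyl-CoA synthesis, 3 were called lower and none higher, with a median log2 fold change of -0.61 against 0.01 over all rows tested. *Cd36*, the fatty acid translocase, had 366 to 516 CPM in control mice and 217 to 355 CPM in the NOX4-deficient libraries (log2 fold change -0.72, SE 0.16, edgeR adjusted p = 0.0189). *Acsl1*, the main long-chain acyl-CoA synthetase of muscle, had a log2 fold change of -0.65 (SE 0.15, edgeR adjusted p = 0.0195). For *Slc27a1*, the fatty acid transport protein FATP1, it was -0.61 (SE 0.14, edgeR adjusted p = 0.0243). Each of these 3 calls was lost without control replicate 2 and without NOX4-deficient replicate 1, with adjusted p-values of 0.0574 and 0.0509 for *Cd36*, 0.056 and 0.0521 for *Acsl1*, and 0.0658 and 0.0605 for *Slc27a1*. Those of *Cd36* and *Acsl1* were also lost without NOX4-deficient replicate 3 (0.0574 and 0.0605), and that of *Slc27a1* without control replicate 1 (0.0654).

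Of 14 genes of mitochondrial beta-oxidation, 1 was called lower and none higher, with a median of -0.17. In this list 4 genes were lower and 0 higher at an unadjusted p under 0.05, and 2 had separated groups. The called gene was *Acadl*, long-chain acyl-CoA dehydrogenase, with 307 to 415 CPM in control mice and 169 to 283 CPM in the NOX4-deficient libraries (log2 fold change -0.64, SE 0.16, edgeR adjusted p = 0.0264). Its adjusted p was 0.0693 without control replicate 1, 0.0725 without control replicate 2, 0.0661 without NOX4-deficient replicate 1 and 0.0554 without NOX4-deficient replicate 3. *Acadvl*, very long-chain acyl-CoA dehydrogenase, had a log2 fold change of -0.30 (SE 0.13, edgeR adjusted p = 0.197). For *Hadha*, a subunit of the trifunctional protein, it was -0.18 (SE 0.15, edgeR adjusted p = 0.508). The list of 13 genes for the respiratory chain and citrate synthase had no call in either direction with edgeR, DESeq2 or pydeseq2, 0 genes at an unadjusted p under 0.05, and a median of 0.07, and *Cs* itself had a log2 fold change of 0.02 (SE 0.11, edgeR adjusted p = 0.944). In that list 0 genes had separated groups.

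Among the other genes of carnitine supply and transfer, 6 were tested and 1 was called lower. Of these 6, 2 were lower and 0 higher at an unadjusted p under 0.05, and 2 had separated groups. *Slc16a9*, a monocarboxylate transporter family member linked to carnitine efflux, had 5.71 to 16.7 CPM in control and 4.39 to 5.51 CPM in NOX4-deficient libraries (log2 fold change -1.06, SE 0.29, edgeR adjusted p = 0.0442). The highest value was that of control replicate 4. Without it the log2 fold change was -0.67 and the adjusted p 0.0853, and the call held in 6 of 17 alternatives. Of 11 genes that supply or use acetyl-CoA and malonyl-CoA or regulate the carboxylases, none was called in either direction by edgeR, DESeq2 or pydeseq2, and 1 had an unadjusted p under 0.05. Of these, 10 had a positive log2 fold change and the median was 0.14.

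AMP-activated protein kinase (AMPK) phosphorylates and inhibits both carboxylases. Of its 7 subunit genes, 1 was called higher and none lower. *Prkag3*, the gamma subunit of fast muscle, rose from between 107 and 143 CPM in control to between 269 and 360 CPM in NOX4-deficient libraries (log2 fold change 1.33, SE 0.13, edgeR adjusted p = 1.08e-04). *Prkaa2*, the main catalytic subunit of muscle, had a log2 fold change of 0.06 (SE 0.14, edgeR adjusted p = 0.831).

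Of 11 genes for PPARs, their RXR partners, PGC1 coactivators and estrogen-related receptors, 1 was called lower and none higher. The log2 fold change was negative in 6 and positive in 5, and 4 were lower and 3 higher at an unadjusted p under 0.05. The 3 higher genes, named after their values were seen, had separated groups. They were *Rxrg* (log2 fold change 0.41, edgeR adjusted p = 0.0366), *Ppargc1b* (0.70, edgeR adjusted p = 0.117) and *Rxra* (0.26, edgeR adjusted p = 0.122). *Ppard*, a PPAR known for driving fat oxidation in muscle, had 29.4 to 36.3 CPM in control and 19.5 to 25.9 CPM in NOX4-deficient libraries (log2 fold change -0.58, SE 0.12, edgeR adjusted p = 0.0153). *Ppara* had a log2 fold change of -0.99 with a wide error (SE 0.61, edgeR adjusted p = 0.377), and it was -0.38 without control replicate 2 and -1.63 without NOX4-deficient replicate 4. *Ppargc1a*, which encodes PGC1α, had 54.2 to 161 CPM in control and 27.7 to 61.4 CPM in NOX4-deficient libraries, and its groups overlapped (log2 fold change -1.39, SE 0.42, edgeR adjusted p = 0.0855). Its adjusted p was 0.042 with DESeq2, 0.036 with pydeseq2 and 0.0384 in an edgeR fit that was not robust.

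**Figure D4:**
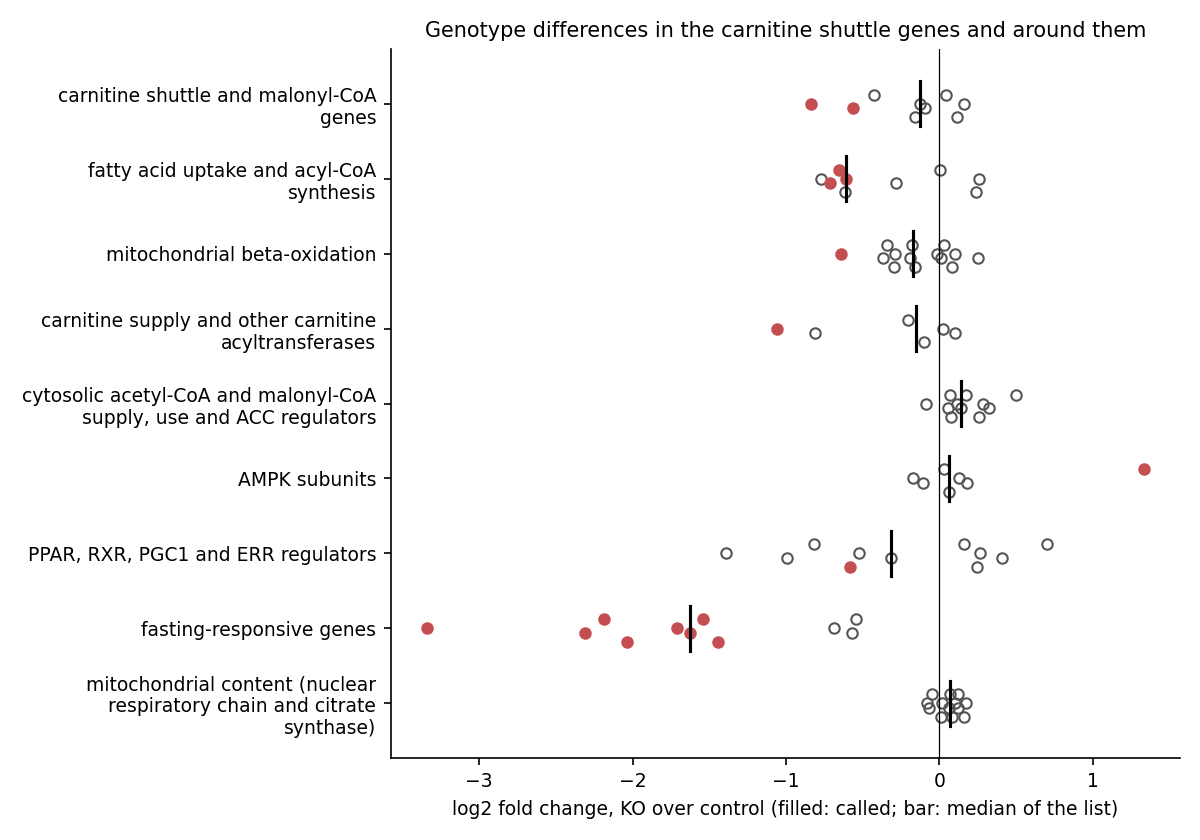
Log2 fold changes, NOX4-deficient (KO) over control, of the 9 genes (top) and of the genes tested in 8 lists around them; each circle is a gene, filled red where called, and bars mark the median of a list. The medians run from -1.62 in the fasting-responsive genes to 0.14 in the genes of acetyl-CoA and malonyl-CoA supply and use.

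Most genes of a fasting-responsive list were lower in NOX4-deficient muscle as well. Of 11 fasting-responsive genes, 8 were called lower and none higher, with a median log2 fold change of -1.62. In all 4 NOX4-deficient libraries their summed level, 1230 to 2228 CPM, lay below the control range of 4516 to 6549 CPM. *Pdk4*, which inhibits pyruvate dehydrogenase, had 1540 to 2221 CPM in control mice and 280 to 942 CPM in the NOX4-deficient libraries (log2 fold change -1.54, SE 0.35, edgeR adjusted p = 0.0288). *Acot2* and *Acot1*, acyl-CoA thioesterases close in sequence between which reads may be split, had log2 fold changes of -2.31 and -3.34, and *Lpin1* of -1.44 (edgeR adjusted p-values from 2.34e-05 to 9.61e-04). Of 9 clock genes, 1 was called lower, *Arntl* (log2 fold change -1.94, edgeR adjusted p = 0.0243), 1 was called higher, *Dbp* (2.37, edgeR adjusted p = 0.0245), and the other 7 were not called. The call of *Pdk4* was lost in 5 of 17 alternatives, that of *Arntl* in 3 and that of *Dbp* in 7. For *Pdk4* these were the fit with no filter on low counts (edgeR adjusted p = 0.122) and those without control replicates 2, 3 and 4 (0.0585, 0.0663 and 0.0688) or NOX4-deficient replicate 2 (0.0973). *Arntl* was lost with no filter (0.0903) and without NOX4-deficient replicates 2 and 4 (0.0823 and 0.0702). *Dbp* was lost with no filter (0.0774), without control replicates 1 and 2 (0.0653 and 0.0629) and without any NOX4-deficient replicate (0.0516 to 0.0752). The part of feeding state or time of day in the differences of *Mlycd* and *Acacb* was not tested.

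Markers of fiber types, adipocytes, leukocytes, endothelium, fibroblasts and blood were described from lists. Genes of the blood list were called by edgeR, DESeq2 and pydeseq2, and none of the other lists named here had a call with these tools. *Hba-a1*, a globin gene with a near-identical copy, had a log2 fold change of 1.24 (SE 0.23, edgeR adjusted p = 0.00978), 2 of the 3 blood genes tested were called higher, and the summed level was 47.6 to 52.7 CPM in control and 72.3 to 159 CPM in NOX4-deficient libraries. The 8 slow-fiber genes all had positive log2 fold changes without a call, with sums of 332 to 725 CPM in control mice and 428 to 1279 CPM in the NOX4-deficient libraries. Slow fibers are known for more fat oxidation than fast fibers. The 7 adipocyte genes summed to 163 to 299 CPM in control and 160 to 209.9 CPM in NOX4-deficient libraries, and the 7 leukocyte genes to 30.9 to 78.0 and 15.7 to 40.7 CPM, in each case with overlap and without a call. All 7 leukocyte genes had negative log2 fold changes, with a median of -0.47, and the groups of *Ptprc* did not overlap. The sums of the 5 endothelial genes (188 to 232 and 199 to 224 CPM) and of the 5 fibroblast genes (337 to 580.3 and 307 to 517 CPM) overlapped too. Neither list had a call, and in each 2 log2 fold changes were negative and 3 positive. At an unadjusted p under 0.05 there were 2 leukocyte genes, both lower (*Ptprc* and *Adgre1*), 1 fibroblast gene, which was higher (*Col1a1*; these 3 are named after their values were seen), and 0 slow-fiber, fast-fiber, adipocyte and endothelial genes. No tested marker of these lists had 0 counts in any library, and the part of these cells in the differences of the 9 genes was not tested.

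Under 17 other settings the direction of *Mlycd*, *Acacb* and *Slc25a20* was unchanged. *Mlycd* was called in all 17, *Acacb* in 12 and *Slc25a20* in none.

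**Figure D5:**
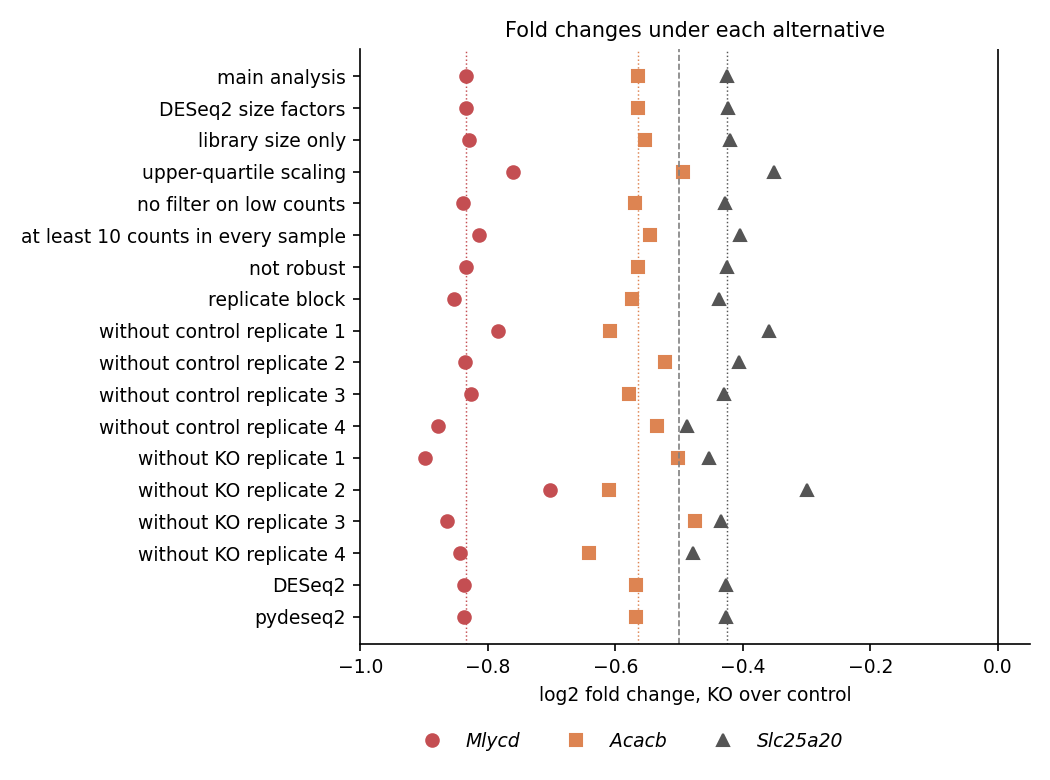
Log2 fold changes, NOX4-deficient (KO) over control, of *Mlycd* (circles), *Acacb* (squares) and *Slc25a20* (triangles) in the main analysis and 17 alternatives; dotted lines mark the main values and the dashed line the threshold of -0.5. *Mlycd* stays between -0.90 and -0.70, *Acacb* between -0.64 and -0.48 and *Slc25a20* between -0.49 and -0.30.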

How the data were processed

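Gastrocnemius RNA of 4 control and 4 NOX4-deficient mice was measured. The authors deposited a table of raw counts of reads per gene, which were not normalized. The paper's methods name the nf-core RNA-seq pipeline and unstranded libraries, and the submitters' processing notes name STAR and GRCm39. The annotation and the settings of the counter are not given in the sources used here. Each of the 8 columns carried the name of 1 sample, and 0 were left over. A repeated gene name stands for its row with most counts.

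edgeR 4.0.16 in R 4.3.3 was run on the counts (TMM, filterByExpr, robust glmQLFit, glmQLFTest, genotype as the only term), with Benjamini-Hochberg adjustment over 12725 rows. The thresholds of 0.05 and 0.5 follow the paper's methods. Standard errors are the absolute log2 fold change divided by the square root of F. Depth ranged from 16350548 to 19804661 counts, and the common biological coefficient of variation was 0.174. Replicates of a genotype differed beyond sampling noise in all 12 pairs. The script was tested on simulated data.

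Exon lengths and shared exons came from GENCODE M21 (GRCm38), which is not the build of the counts, and promoter windows from RefSeq (GRCm38.p6). Alternatives were 3 other scalings, 2 other filters, a fit that was not robust, a replicate block, each library left out, DESeq2 1.42.0, pydeseq2 0.5.4 and 2 other thresholds. The genes and lists were chosen with earlier results of these data known. Named are the 9 genes, *Nox4*, up to 3 called genes with the smallest p of each pathway list, the called gene with the smallest p of each marker list, and 8 companions named whatever their result. *Tmlhe* was not analysed here. A further marker list is not reported here.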

Additional observations from a re-analysis of the deposited data

Results flagged for a closer look

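In each group of 4 libraries, the gap between the most extreme library and its neighbour was set against the whole range and compared with Dixon's 95% critical value. Over the named genes and the ratios between genes, 72 groups were tested and 5 were past it, where chance gives about 3.6 (1 in 20). None of the 5 was a gene of the carnitine shuttle or of malonyl-CoA control, or a ratio between them. Control replicate 4 was the highest control in *Arntl* (73.5 CPM) and *Lpin1* (969.8 CPM). NOX4-deficient replicate 1 was the lowest of its genotype in *Nox4* (1.74 CPM), replicate 2 the highest in *Slc16a9* (5.51 CPM) and replicate 4 the highest in *Ppargc1a* (61.4 CPM).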

How the results depend on the processing

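Of the 9 genes, 2 were called lower in the main analysis and 1, *Mlycd*, with upper-quartile scaling or at an adjusted p under 0.01. Leaving out single libraries gave counts from 1 to 2, and no gene was called higher under any of the 19 settings. Over all rows tested, 156 were called lower and 96 higher at an adjusted p under 0.01. Without single libraries, 295 to 425 were lower and 204 to 317 higher, the fewest in each direction without control replicate 4, and 227 were higher without control replicate 2. With upper-quartile scaling the median log2 fold change of all rows was 0.09. Signs turned where single libraries were left out, with log2 fold changes from -0.38 to 0.047 for *Cpt1b*, -0.049 to 0.15 for *Slc22a5*, -0.041 to 0.18 for *Prkaa2* and -0.033 to 0.084 for *Cs*, and the cause was not tested. The labels do not say whether the replicate numbers pair the mice. The deviations of same-numbered libraries had correlations of 0.223, 0.147, 0.041 and 0.0412, and only number 1 correlated best with itself. Weak correlations cannot show that the mice were not paired. With the replicate block 543 rows were lower and 390 higher, and the same 2 of the 9 genes were called lower. *Cpt1b* had at most 21 counts, and its 95% interval was the widest of the 9 genes.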

Other observations

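Within each library, *Slc25a20* had 0.208 ± 0.0238 counts per count of *Crat* in control mice and 0.164 ± 0.0249 in NOX4-deficient mice (SD, n = 4 each), and the groups did not overlap. Per count of *Cpt2*, which also acts at the inner membrane, it had 1.87 ± 0.168 and 1.54 ± 0.146 counts, with overlap. *Acacb* had 4.27 ± 0.735 counts per count of *Slc25a20* in control mice and 3.97 ± 1.24 in NOX4-deficient mice, also with overlap. These ratios were not tested.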
